A study of Saccharomyces cerevisiae with 24 samples.

Results

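The lower glycolysis isozymes of the yeast Saccharomyces cerevisiae are the enzymes that take glyceraldehyde phosphate to pyruvate. They were followed here through 9 genes, picked by name from both expression tables: TDH1, TDH2, TDH3, PGK1, GPM1, ENO1, ENO2, CDC19 and PYK2. These are 9 of 7133 table entries, of which 6304 carried values and 4888 passed the filter on low values; all 9 genes passed it.

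The study measured mRNA (RNA-seq) and ribosome footprints (ribosome profiling, which sequences the pieces of mRNA that ribosomes protect) in the CEN.PK strain background. Cells carried either wild-type DIM1 (WT) or the DIM1 allele E85Q or D87E; Dim1 is the methyltransferase that dimethylates adenosines in the small-subunit rRNA. Each genotype was grown to log phase in sulfur-free medium with 1 mM methionine as the sulfur source, and again sampled after 2 h of starvation in sulfur-free medium without methionine. Numbered strains stood for each genotype, here called isolates: 172 and 600 for WT, 623 and 625 for E85Q, 887 and 888 for D87E, so that n = 2 in each of the 6 groups per assay. The labels do not say whether the isolates of a genotype were made independently. Both libraries of a sample came from the same lysate.

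In lower glycolysis, glyceraldehyde phosphate dehydrogenase (Tdh1, Tdh2, Tdh3) oxidises glyceraldehyde phosphate, and phosphoglycerate kinase (Pgk1) uses its product to make ATP. Phosphoglycerate mutase (Gpm1) and enolase (Eno1, Eno2) then lead to phosphoenolpyruvate, from which pyruvate kinase (Cdc19, Pyk2) makes pyruvate and more ATP. All but the last step run backwards in gluconeogenesis. Yeast keeps near-identical copies of several of these enzymes; Tdh3, Eno2 and Cdc19 are known as the abundant forms during growth on glucose, and Tdh1 as a form that appears when growth slows. PYK2 is known to be repressed by glucose.

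In the RefSeq R64 assembly, which the name sacCer3 also denotes, TDH1 (YJL052W) lies on chromosome X from 338271 to 339269 and TDH2 (YJR009C) on the same chromosome from 453683 to 454681. TDH3 (YGR192C) lies on chromosome VII from 882812 to 883810, PGK1 (YCR012W) on chromosome III from 137746 to 138996 and GPM1 (YKL152C) on chromosome XI from 163642 to 164385. ENO1 (YGR254W) lies on chromosome VII from 1000927 to 1002240 and ENO2 (YHR174W) on chromosome VIII from 451327 to 452640. CDC19 (YAL038W) lies on chromosome I from 71786 to 73288, and PYK2 (YOR347C) on chromosome XV from 984942 to 986462. No other annotated gene of that assembly overlaps any of the 9.

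Levels are given in RPKM, reads per kilobase of counted gene and per 1e6 reads, as the authors deposited them. The tables are named as masked, and the step size of the RPKM values shows how many bases of each gene were counted. For PGK1 this was 1218 of 1251 bases, for GPM1 711 of 744, for CDC19 1465 of 1503 and for PYK2 1483 of 1521. For the near-identical copies it was far less: 385 of 999 bases in TDH1, 112 in TDH2 and 143 in TDH3, and 298 of 1314 bases in ENO1 and 297 in ENO2. Both assays gave the same number for every gene. The positions left out are not stated, so levels of the TDH and ENO genes rest on short stretches, while the change of a gene between groups is taken over the same stretch in every library. Reads behind a single value ran from 728 (PYK2 mRNA) to 1051137 (CDC19 footprints). The recovered reads per library, in units of 1e6, were 24.32 to 32.29 for mRNA. For footprints they were 49.09 to 81.43 with methionine, 39.19 and 46.95 in starved E85Q and 21.36 to 27.29 in starved WT and D87E. Footprint depth thus moved with both medium and genotype; its part in the footprint results was not tested, and RPKM are scaled to depth. Genes of a cells summed to 587 to 1105 RPKM in mRNA, genes of alpha cells to 7.18 to 27.8 and haploid-specific genes to 141 to 307.6, with none of these genes at 0 in every library.

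With methionine, TDH3 was the gene with the highest mRNA and footprint RPKM of all genes in each of the 6 libraries of either assay. In WT the mean mRNA order was TDH3 (17645 RPKM), ENO2 (8767), CDC19 (6029), GPM1 (4362), PGK1 (3400), TDH2 (2445), ENO1 (926), TDH1 (322) and PYK2 (21). Neighbours in this order did not overlap, and the same order held in footprints and in both mutants. Starvation reordered the genes. In starved WT mRNA the order was TDH3 (6108), GPM1 (5367), PGK1 (2376), ENO1 (2313), CDC19 (1963), ENO2 (1626), TDH1 (669), TDH2 (415) and PYK2 (50), with PGK1 overlapping ENO1 and CDC19 overlapping ENO2. In starved WT footprints GPM1 (8451) and TDH3 (8398) overlapped at the top. In starved E85Q mRNA TDH3 stayed first (13620), followed by GPM1 (7189), ENO2 (4436) and CDC19 (4317), of which the last pair overlapped. Among the mRNA values of all genes, TDH3 fell from rank 1 to rank 5 in both WT isolates and stayed at rank 1 in both E85Q isolates, while ENO1 rose from ranks 140 and 137 to ranks 26 and 28 in WT. In bulk samples, fewer cells that express a gene and less RNA per cell cannot be told apart.

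**Figure D1:**
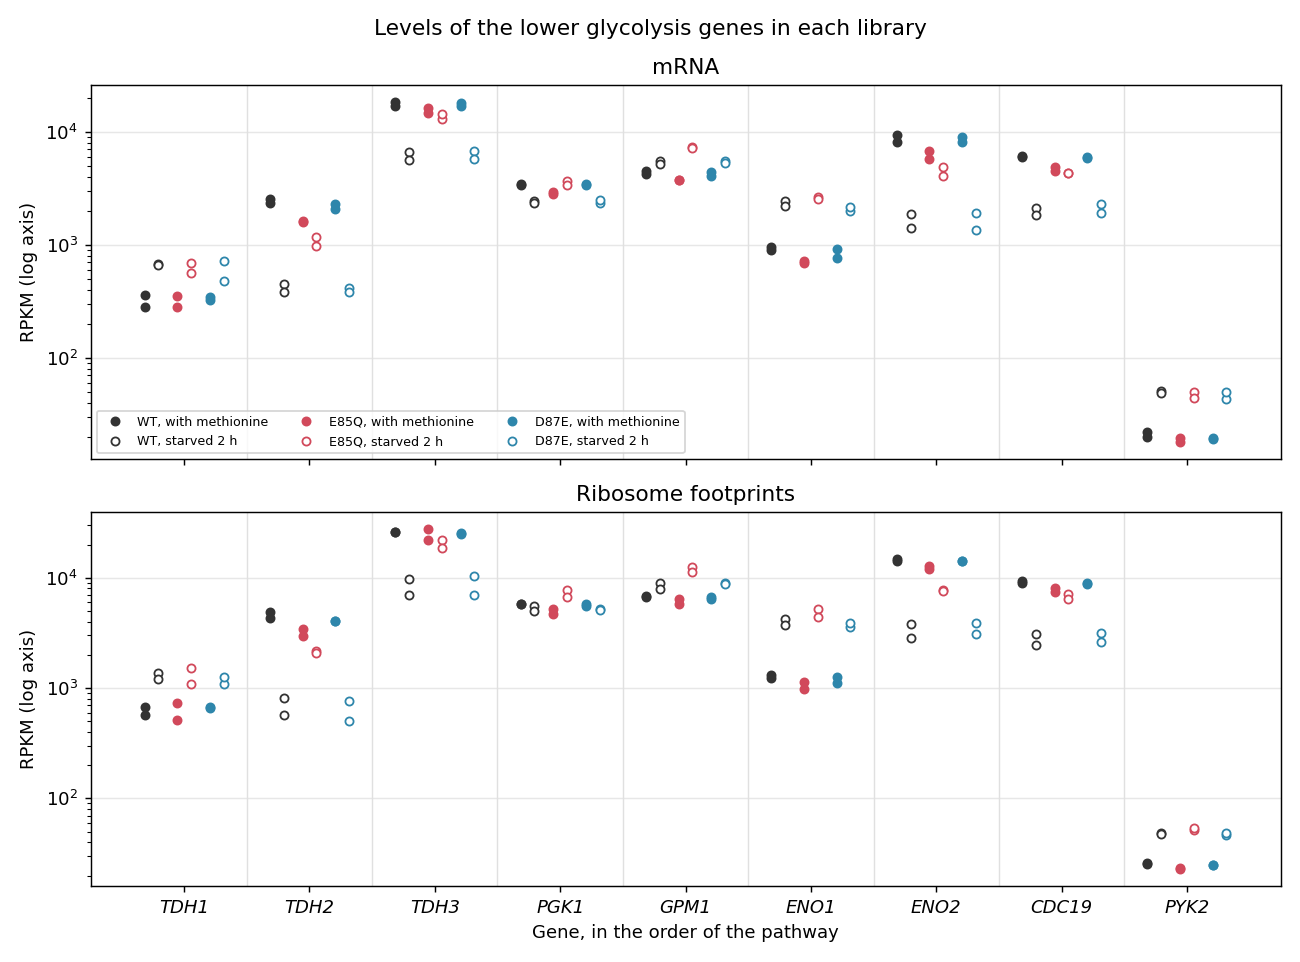
RPKM (log axis) of the 9 genes in each mRNA library (top) and footprint library (bottom); each point is 1 library, filled with methionine and open when starved. Open WT and D87E points lie far below the filled ones for TDH2, TDH3, ENO2 and CDC19 and above them for TDH1, ENO1 and PYK2, whereas in E85Q the starvation changes of TDH3 and CDC19 were not called.

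The first question is how these genes respond to sulfur starvation when Dim1 is intact. In WT mRNA TDH2, TDH3, PGK1, ENO2 and CDC19 fell, and TDH1, GPM1, ENO1 and PYK2 rose; all 9 were called at an adjusted p below 0.05. Within each family the copy that was lowest with methionine rose and the copy that was highest with methionine fell. In D87E the same 4 rose and the same 5 fell. In E85Q 5 rose, among them PGK1, only TDH2 and ENO2 fell, and TDH3 and CDC19 were not called. These counts stand against a large background, since starvation changed 86.9% of all tested genes in WT mRNA, 86.1% in D87E and 76.9% in E85Q. In footprints 3 rose, 4 fell and 2 were not called in WT, where 83.4% of all genes were called. In E85Q 5 rose, 2 fell and 2 were not called (75.5% of all genes), and in D87E 4 rose, 4 fell and 1 was not called (82.3%). The changes are differences of log2(RPKM + 1) between group means, tested with limma over all genes with Benjamini-Hochberg adjustment. Starvation moved the median of all genes by 0.40 in WT, 0.14 in E85Q and 0.41 in D87E in mRNA, and by 0.23, 0.13 and 0.15 in footprints, and a change should be read relative to that.

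**Figure D2:**
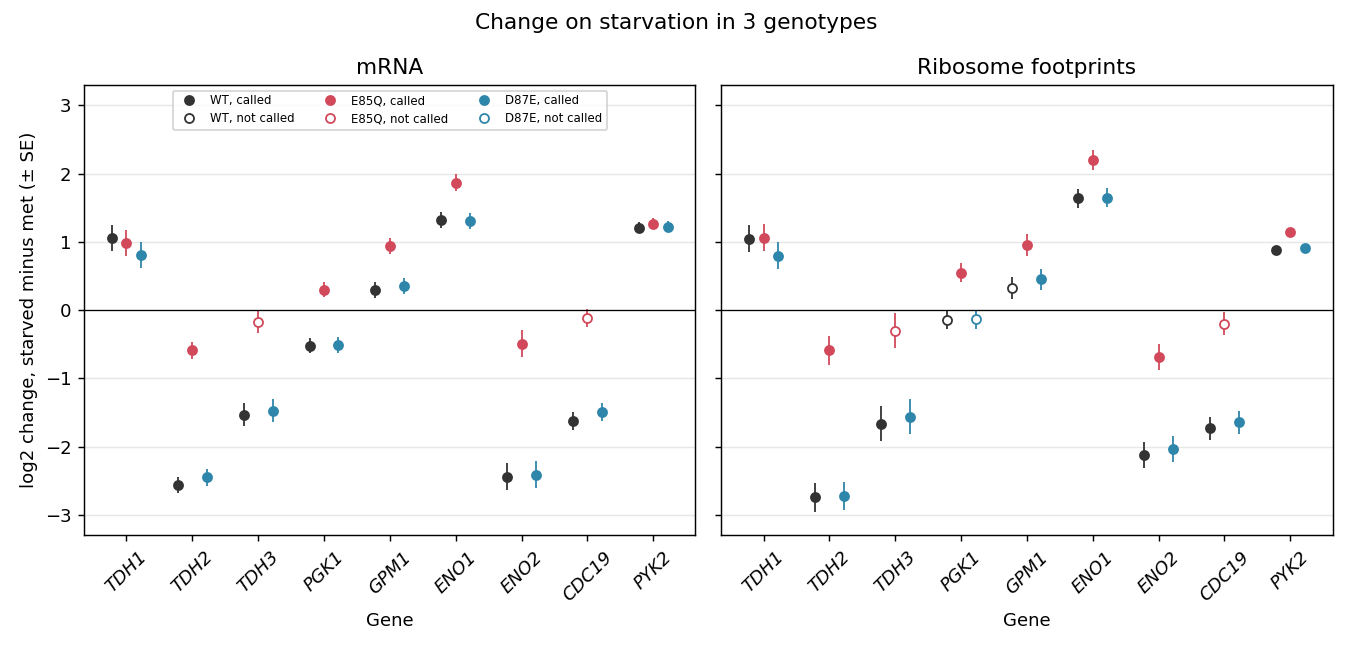
Change on starvation (log2, starved minus with methionine) of the 9 genes in mRNA (left) and footprints (right) for WT, E85Q and D87E; bars are the SE of the limma fit, filled points were called at an adjusted p below 0.05. WT and D87E lie close together for every gene, and E85Q lies above both for TDH2, TDH3, PGK1, GPM1, ENO1, ENO2 and CDC19.

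At the first step, glyceraldehyde phosphate dehydrogenase, TDH3 mRNA was 17009 and 18281 RPKM in WT isolates 172 and 600 with methionine and 6582 and 5634 when starved. In E85Q isolates 623 and 625 it was 14692 and 16014 with methionine and 12912 and 14329 when starved. In D87E isolates 887 and 888 it was 16679 and 17974, and then 6759 and 5771. Starved libraries lay below those with methionine in all 3 genotypes, and those of WT and D87E lay below every E85Q library. On the log2 scale TDH3 mRNA fell by 1.53 in WT (SE 0.17, adjusted p = 9.0e-06) and by 1.47 in D87E (SE 0.17, adjusted p = 1.3e-05), and changed by -0.17 in E85Q (SE 0.17, adjusted p = 0.38). Its footprints went from 26073 and 26118 RPKM to 9805 and 6990 in WT and from 27798 and 22126 to 21995 and 18461 in E85Q. In D87E they went from 25181 and 25129 to 10335 and 7022. The footprint changes were -1.66 (SE 0.26), -0.30 (SE 0.26, adjusted p = 0.31) and -1.56 (SE 0.26) in WT, E85Q and D87E.

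TDH2, the copy next to TDH3 in level, fell in all 3 genotypes. Its mRNA was 2354 and 2536 RPKM in WT with methionine and 451.1 and 379.1 when starved, a fall of 2.56 (SE 0.12, adjusted p = 1.4e-08). In E85Q it was 1594 and 1635 with methionine and 974.2 and 1182 when starved, which is a change of -0.59 (SE 0.12, adjusted p = 0.0014). In D87E it was 2081 and 2307 with methionine and 418.5 and 382.6 when starved (-2.45, SE 0.12). The 2 media overlapped in no genotype, but every starved E85Q library held more than 2 times the TDH2 mRNA of any starved WT or D87E library. Footprints went from 4857 and 4290 to 812.6 and 573.1 RPKM in WT, from 3423 and 2957 to 2152 and 2076 in E85Q and from 4060 and 4064 to 758.8 and 499 in D87E. The footprint changes were -2.74 (SE 0.21), -0.59 (SE 0.21, adjusted p = 0.027) and -2.72 (SE 0.21). The E85Q footprint call was lost without E85Q met isolate 623 and without either starved E85Q library, with values from -0.62 to -0.48, and with no filter on low values (adjusted p = 0.058).

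TDH1 rose in every genotype. Its mRNA was 283.9 and 360.9 RPKM in WT with methionine and 674.8 and 663.9 when starved. In E85Q the levels were 350.1 and 283.3, then 690.2 and 562.6, and in D87E 327 and 343.5, then 481.9 and 715.9. Starved libraries lay above those with methionine in all 3 genotypes. The log2 rises were 1.06 in WT (SE 0.19, adjusted p = 0.00031), 0.98 in E85Q (SE 0.19, adjusted p = 0.00072) and 0.81 in D87E (SE 0.19, adjusted p = 0.0021). With medians set equal the D87E rise was 0.41 and was not called (adjusted p = 0.065). Footprints rose by 1.05, 1.06 and 0.80 (SE 0.20 each), from between 509.6 and 737.5 RPKM with methionine to between 1079 and 1521 when starved over the 3 genotypes.

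PGK1, the kinase that follows, moved in opposite directions in E85Q and the other genotypes. In WT its mRNA was 3435 and 3364 RPKM with methionine and 2425 and 2326 when starved, and in D87E 3353 and 3463, then 2337 and 2466. In the E85Q libraries it was 2896 and 2801 with methionine and 3633 and 3403 when starved. No group overlapped its partner in the other medium. The changes were -0.52 in WT (SE 0.11, adjusted p = 0.00084), -0.51 in D87E (SE 0.11, adjusted p = 0.00099) and 0.30 in E85Q (SE 0.11, adjusted p = 0.022). The E85Q rise was lost without either E85Q library with methionine or starved isolate 623 (0.26 to 0.33), with the replicate block (adjusted p = 0.07) and with medians set equal (0.21, adjusted p = 0.09). In footprints PGK1 was 5771 and 5780 RPKM in WT with methionine against 5558 and 4967 when starved, a change of -0.14 (SE 0.14, adjusted p = 0.4) that was called with medians set equal (-0.35), and in D87E -0.13 (SE 0.14, adjusted p = 0.41). E85Q footprints went from 5171 and 4666 to 7663 and 6749 RPKM, a rise of 0.55 (SE 0.14, adjusted p = 0.0058).

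GPM1, the mutase, was highest in starved E85Q. Its mRNA was 4245 and 4479 RPKM in WT with methionine and 5550 and 5184 when starved. In E85Q it was 3722 and 3762, then 7241 and 7137, and in D87E 4091 and 4398, then 5477 and 5318. Every starved E85Q library lay above all other libraries, and each genotype's media did not overlap. The rise was 0.94 in E85Q (SE 0.12, adjusted p = 4.0e-05), 0.30 in WT (SE 0.12, adjusted p = 0.039) and 0.35 in D87E (SE 0.12, adjusted p = 0.02). The WT and D87E rises were smaller than the shift of the median of all genes. With the medians of all libraries set equal they turned to -0.11 in WT and -0.05 in D87E, neither of them called. Neither was called with upper quartiles set equal (0.13 and 0.16) or with no filter on low values (adjusted p = 0.11 and 0.067). The WT call was also lost without any 1 of the 4 WT or 4 E85Q libraries (0.25 to 0.35), and the D87E call without D87E met isolate 887 (0.30); with the replicate block the adjusted p values were 0.12 and 0.081. Footprints of GPM1 changed by 0.32 in WT (SE 0.16, adjusted p = 0.077; called with the filter raised to a mean of 20 RPKM) and rose by 0.96 in E85Q (SE 0.16, adjusted p = 0.00027) and 0.45 in D87E (SE 0.16, adjusted p = 0.02). The D87E footprint call was lost without any 1 of the 4 D87E libraries (0.42 to 0.48) and with medians set equal (0.33, adjusted p = 0.077).

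The enolase genes moved against each other. ENO2 mRNA was 8129 and 9405 RPKM in WT with methionine and 1852 and 1399 when starved. E85Q values were 5720 and 6742, then 4037 and 4835, and in D87E 8170 and 9021, then 1914 and 1357. Media did not overlap in any genotype. The falls were 2.44 in WT (SE 0.20, adjusted p = 8.5e-07), 2.41 in D87E (SE 0.20, adjusted p = 9.3e-07) and 0.49 in E85Q (SE 0.20, adjusted p = 0.049). The E85Q fall was at the threshold: it was lost in 9 of the 12 fits that left out 1 library (-0.62 to -0.36), namely those without WT met 172 or 600, WT starved 600, any E85Q library or D87E met 887 or 888, and with the replicate block (adjusted p = 0.077). It was also lost with no filter on low values (adjusted p = 0.11). ENO2 footprints went from 14703 and 14057 to 3835 and 2867 RPKM in WT, from 12844 and 11958 to 7794 and 7617 in E85Q and from 14153 and 14271 to 3899 and 3100 in D87E. The footprint falls were -2.12, -0.69 (adjusted p = 0.0072) and -2.03, with an SE of 0.19 each.

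ENO1 mRNA was 891.9 and 959.8 RPKM in WT with methionine and 2438 and 2188 when starved. In E85Q the levels were 695.5 and 721.6, then 2657 and 2521, and in D87E 758.5 and 923.7, then 1978 and 2168. All starved libraries lay above all libraries with methionine. It rose by 1.32 in WT (SE 0.12, adjusted p = 1.3e-06), 1.87 in E85Q (SE 0.12, adjusted p = 1.6e-07) and 1.31 in D87E (SE 0.12, adjusted p = 1.4e-06). ENO1 footprints rose from 1309 and 1244 to 4251 and 3719 RPKM in WT, from 1131 and 972.3 to 5240 and 4415 in E85Q and from 1107 and 1271 to 3592 and 3858 in D87E. These rises were 1.64, 2.20 and 1.65 on the log2 scale (SE 0.14 each).

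Of the pyruvate kinases, CDC19 carried nearly all RPKM. Its mRNA was 6037 and 6021 RPKM in WT with methionine and 2091 and 1835 when starved, and in D87E 5860 and 5928, then 2284 and 1926. In E85Q it was 4496 and 4860 with methionine and 4304 and 4331 when starved. The fall was 1.62 in WT (SE 0.13, adjusted p = 5.8e-07) and 1.49 in D87E (SE 0.13, adjusted p = 1.1e-06), and the change in E85Q was -0.11 (SE 0.13, adjusted p = 0.43). Its footprints fell by 1.73 in WT (SE 0.17) and 1.64 in D87E (SE 0.17), and changed by -0.20 in E85Q (SE 0.17, adjusted p = 0.29).

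PYK2 remained the lowest of the 9 genes in every library. Its mRNA was 20.16 and 21.99 RPKM in WT with methionine and 51.26 and 49.14 when starved. For E85Q the values were 19.69 and 17.89, then 49.88 and 43.95, and in D87E 19.26 and 19.57, then 43.65 and 49.72. Starved libraries lay above those with methionine throughout. PYK2 mRNA rose by 1.21 in WT (SE 0.08, adjusted p = 1.8e-07), by 1.27 in E85Q (SE 0.08, adjusted p = 2.3e-07) and by 1.22 in D87E (SE 0.08, adjusted p = 1.8e-07). Its footprints rose by 0.88, 1.14 and 0.91, each with an SE of 0.05.

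Unequal changes of the copies, opposite in direction for some pairs, shifted the isozyme shares. These are percentages of a family's summed RPKM and do not depend on the scaling of a library. The copies were counted over different stretches, on which the level of a share depends. ENO1 held 9.89% and 9.26% of the enolase mRNA RPKM in WT with methionine and 56.8% and 61% when starved. In D87E its share was 8.49% and 9.29%, then 50.8% and 61.5%. E85Q values were 10.8% and 9.67%, then 39.7% and 34.3%. ENO1 thus held the larger share of enolase mRNA in all 4 starved WT and D87E libraries and the smaller in both starved E85Q libraries. In footprints it went from 8.17% and 8.13% to 52.6% and 56.5% in WT, from 8.09% and 7.52% to 40.2% and 36.7% in E85Q and from 7.25% and 8.18% to 48% and 55.4% in D87E. Over the 6 isolates the ENO1 share rose by 41.1 percentage points in mRNA (SD 11.8) and 40.3 in footprints (SD 8.01), in 6 of 6 isolates each. These SDs also hold the differences between genotypes. The mean rise in WT, E85Q and D87E was 49.3, 26.7 and 47.3 in mRNA and 46.4, 30.6 and 44 in footprints.

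TDH1 took 1.44% and 1.7% of the TDH mRNA RPKM in WT with methionine and 8.75% and 9.94% when starved. The starved share was 4.73% and 3.5% in E85Q and 6.29% and 10.4% in D87E. TDH2 went from 12% in both WT isolates to 5.85% and 5.68%, from 9.58% and 9.12% to 6.68% and 7.35% in E85Q and from 10.9% and 11.2% to 5.46% and 5.57% in D87E. TDH3 held most of the family throughout, between 84% and 89.3% of the mRNA and between 79.6% and 87% of the footprints. PYK2 made up 0.333% and 0.364% of the pyruvate kinase mRNA RPKM in WT with methionine and 2.39% and 2.61% when starved, against starved shares of 1.15% and 1% in E85Q and 1.88% and 2.52% in D87E. TDH1 and PYK2 shares rose, and TDH2 shares fell, in 6 of 6 isolates in both assays.

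Each of these shares was tested with an exact two-sided sign-flip permutation test over the 6 isolates, paired by isolate, with 10 tests adjusted together. For TDH1, TDH2, ENO1 and PYK2 the exact test gave p = 0.0312 in both assays, the smallest value that 64 sign patterns allow, and an adjusted p of 0.0391. The TDH3 share changed by -0.881 percentage points in mRNA (SD 1.5, p = 0.2188 in the exact test, lower in 4 of 6 isolates) and by -1.86 in footprints (SD 2.05, p = 0.0625 in the exact test, adjusted p = 0.0694, lower in 5 of 6). Starved E85Q shares did not overlap those of starved WT and D87E for TDH1, TDH2, TDH3, ENO1 or PYK2 in either assay. With methionine E85Q shares of TDH2, TDH3 and PYK2 also lay apart from those of WT and D87E in both assays. For PYK2 the gap was very small. The lower E85Q share was 0.367% in mRNA and 0.291% in footprints, against 0.364% and 0.287% in WT isolate 600. The TDH3 share was higher in E85Q in both media. For TDH2 it was lower with methionine and higher when starved, and for PYK2 the reverse. An exact permutation test of 2 isolates against 2 cannot go below p = 0.333, so these differences of shares between genotypes were not tested.

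**Figure D3:**
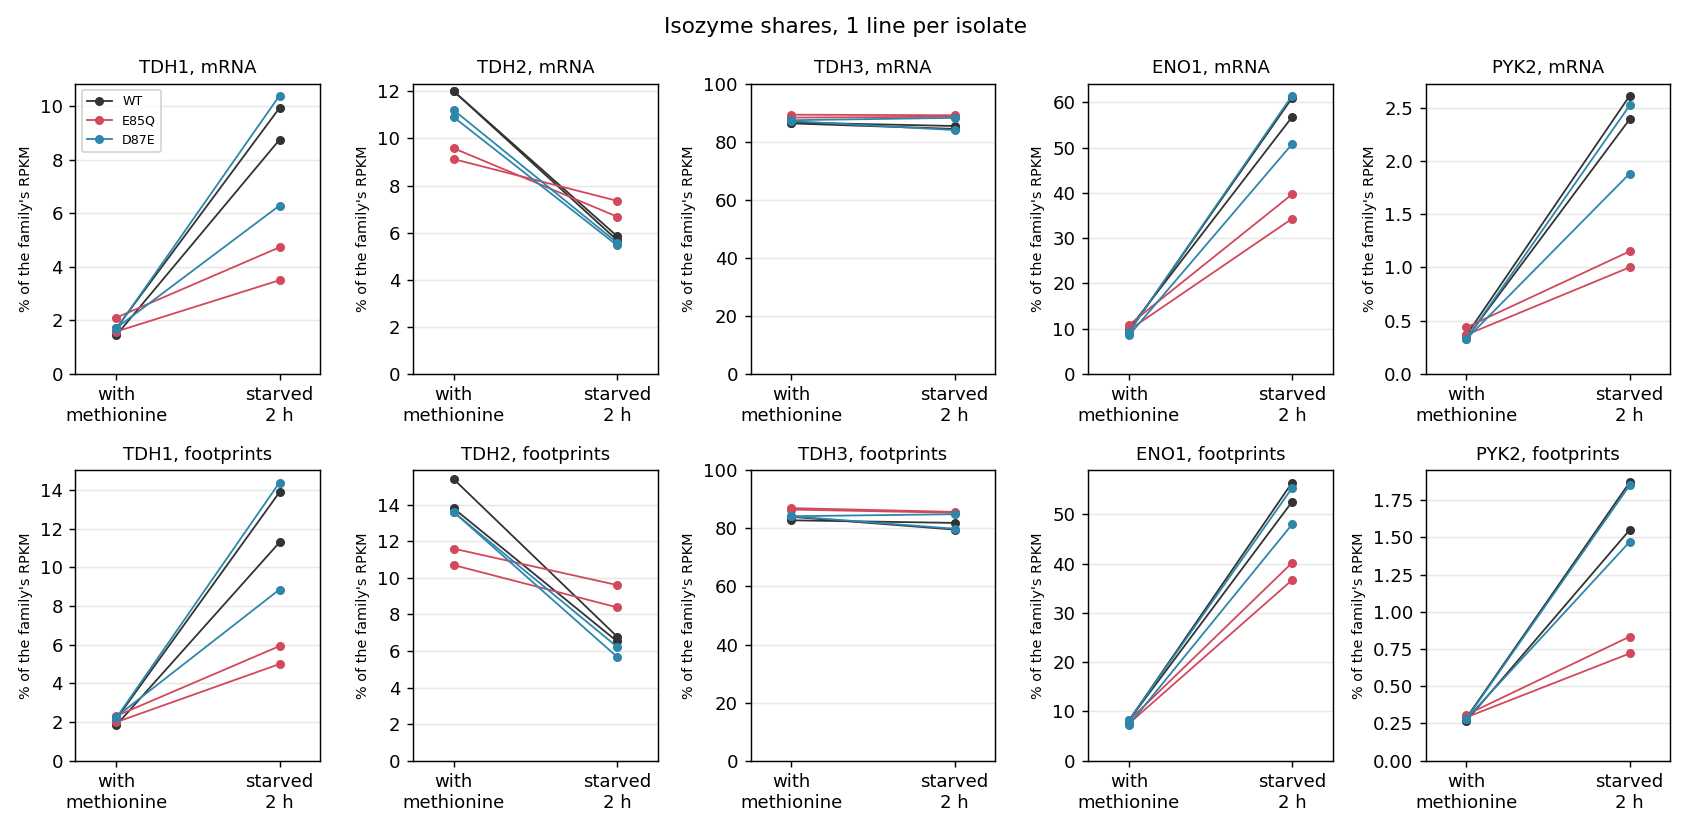
Share of each isozyme in its family's summed RPKM (percent), with methionine and after 2 h of starvation, in mRNA (top) and footprints (bottom); each line is 1 isolate. The ENO1 line of both E85Q isolates ends at 39.7% and 34.3% in mRNA, below all other starved isolates.

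The 9 genes together made up 6.4% and 6.7% of the summed mRNA RPKM of all genes in WT with methionine and 3.83% and 3.46% when starved. D87E went from 6.22% and 6.64% to 3.73% and 3.53%. In E85Q the sum was 5.1% and 5.51% with methionine and 6.18% and 6.46% when starved, higher in both isolates. In footprints the sum went from 7.82% and 7.52% to 4.27% and 3.57% in WT, from 6.95% and 6.56% to 7.68% and 7.41% in E85Q and from 7.38% and 7.47% to 4.32% and 3.8% in D87E. By step, the TDH family took 2.97% and 3.12% of the mRNA RPKM in WT with methionine and 1.34% and 1.17% when starved, and in E85Q 2.48% and 2.68%, then 2.47% and 2.71%. The enolases went from 1.36% and 1.53% to 0.744% and 0.631% in WT and from 0.957% and 1.12% to 1.13% and 1.24% in E85Q. GPM1 was the step whose share of mRNA was higher when starved in all 6 isolates, from 0.641% and 0.661% to 0.962% and 0.912% in WT and from 0.555% and 0.563% to 1.23% and 1.2% in E85Q.

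**Figure D4:**
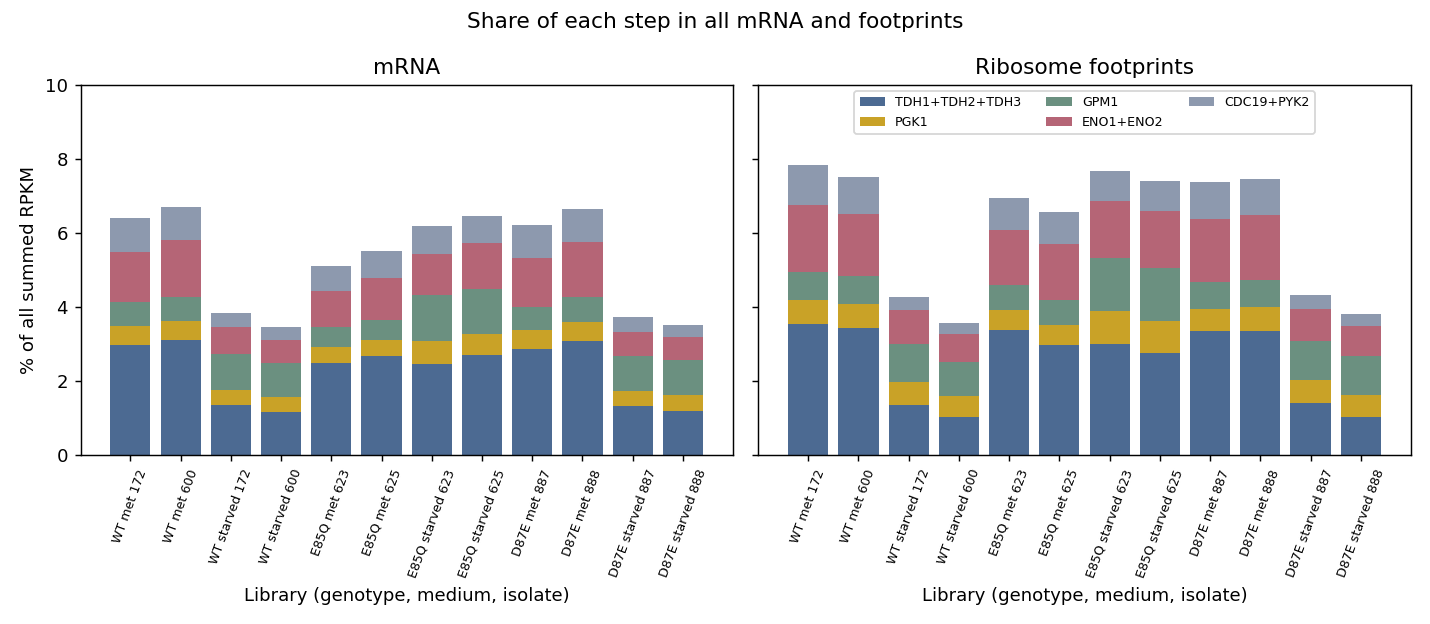
Percent of the summed RPKM of all genes taken by each step of lower glycolysis in every library, as stacked bars, for mRNA (left) and footprints (right). Starved WT and D87E bars reach 3.46% to 3.83% in mRNA, and starved E85Q bars 6.18% and 6.46%.

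The second question is whether the Dim1 alleles alter these levels and responses. With methionine E85Q had less mRNA than WT for 2 of the 9 genes, TDH2 (-0.60, SE 0.12, adjusted p = 0.0092) and ENO1 (-0.38, SE 0.12, adjusted p = 0.034). Of all genes 28.6% were called, 6.2% with less mRNA and 22.4% with more. CDC19 stood at -0.37 (SE 0.13, adjusted p = 0.057) and ENO2 at -0.49 (SE 0.20, adjusted p = 0.092). The TDH2 call was lost without WT met isolate 600 or E85Q met isolate 623 (-0.54 and -0.58 in that order), and the ENO1 call without any of the 4 libraries compared (-0.44 to -0.33) and with no filter on low values (adjusted p = 0.051). With medians set equal PGK1 (-0.38), CDC19 (-0.50) and PYK2 (-0.29) were called as well, and with upper quartiles set equal PGK1 (-0.35) and CDC19 (-0.46). CDC19 and ENO2 were called, at unchanged values of -0.37 and -0.49, when either starved D87E library was left out of the pooled spread, and CDC19 also with pseudocount 10 and with the filter raised to a mean of 20 RPKM. None of the 9 was called in footprints with methionine (7.61% of all genes), with 2 at an unadjusted p below 0.05, TDH2 at -0.52 (SE 0.21) and PYK2 at -0.13 (SE 0.05).

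In starved cells E85Q had more mRNA than WT for 6 of the 9 genes and less for none. Of all genes 61.1% were called, 15.7% with more mRNA and 45.5% with less. The excess was 1.46 for ENO2 (SE 0.20, adjusted p = 0.00019), 1.37 for TDH2 (SE 0.12, adjusted p = 1.5e-05), 1.16 for TDH3 (SE 0.17, adjusted p = 0.00027) and 1.14 for CDC19 (SE 0.13, adjusted p = 5.2e-05). PGK1 (0.57, SE 0.11) and GPM1 (0.42, SE 0.12) were also higher. TDH1 stood at -0.10 (SE 0.19), ENO1 at 0.16 (SE 0.12) and PYK2 at -0.10 (SE 0.08), none of them called. With medians set equal ENO1 was called at 0.35 in mRNA and 0.40 in footprints. In footprints the same 6 were higher, where 53.2% of all genes were called, 20.6% higher and 32.5% lower. The footprint excess was 1.63 for TDH2, 1.29 for CDC19, 1.28 for TDH3, 1.22 for ENO2, 0.49 for GPM1 and 0.45 for PGK1. Without WT starved isolate 600 or E85Q starved isolate 623, GPM1 was no longer called in mRNA (0.37 and 0.41) or footprints (0.39 and 0.41), nor was PGK1 in footprints (0.37 and 0.36). PYK2 footprints (0.13, SE 0.05, adjusted p = 0.06) were called, at the same value, without either starved D87E library and with no filter on low values. They were also called with medians set equal (0.26), with upper quartiles set equal (0.18) and with pseudocount 10 (0.11).

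The test of the difference between starvation changes compares the responses directly. The E85Q change lay above the WT change in mRNA for 7 of the 9 genes, all but TDH1 (-0.08, SE 0.27) and PYK2 (0.06, SE 0.12, called at 0.37 with medians set equal). Of all genes 60.4% were called, 11.8% upward and 48.6% downward. The differences were 1.97 for TDH2 (SE 0.18, adjusted p = 4.2e-05), 1.95 for ENO2 (SE 0.29, adjusted p = 0.00039), 1.51 for CDC19 (SE 0.18, adjusted p = 0.00015) and 1.36 for TDH3 (SE 0.24, adjusted p = 0.0011). They were 0.82 for PGK1 (SE 0.15), 0.64 for GPM1 (SE 0.17) and 0.55 for ENO1 (SE 0.17, adjusted p = 0.015); the ENO1 call was lost without WT met 600, WT starved 600 or E85Q met 623 (0.47 to 0.52). For comparison, the median of all genes stood at -0.28 in this difference. In footprints 8 of the 9 differed, all of them upward, and TDH1 at 0.01 (SE 0.28) was not called. Of all genes 41.4% were called in footprints, 13.8% upward and 27.7% downward. TDH2 (2.15, SE 0.30), CDC19 (1.53, SE 0.23) and ENO2 (1.43, SE 0.27) were called in every fit that left out 1 library. The other 5 were not. TDH3 (1.36, SE 0.37, adjusted p = 0.016) was lost without WT starved 600 or E85Q met 625 (1.11 and 1.19), and PGK1 (0.69, SE 0.20) without either WT met library, WT starved 600, E85Q met 625 or E85Q starved 623 (0.59 to 0.69). PYK2 (0.26, SE 0.08) was lost without either WT met library, WT starved 600 or E85Q met or starved 625 (0.23 to 0.28). ENO1 (0.56, SE 0.20, adjusted p = 0.049) and GPM1 (0.63, SE 0.22, adjusted p = 0.042) were lost in 8 and 9 of the 12 such fits, at 0.43 to 0.67 and 0.54 to 0.71. TDH3, ENO1 and GPM1 also lost their calls with no filter on low values (adjusted p = 0.064, 0.061 and 0.058). With 1 library left out ENO1 kept its call without WT starved 172, E85Q starved 625 and both starved D87E libraries, and GPM1 without WT starved 172 and both starved D87E libraries.

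E85Q was also set against D87E, the other mutant, with which it shares neither samples nor isolates; both differences share the E85Q libraries. The E85Q change lay above the D87E change in mRNA for the same 7 genes as against WT, and PYK2 joined them at 0.36 with medians set equal. Of all genes 57.7% were called, 10% upward and 47.7% downward. The differences were 1.92 for ENO2 (SE 0.29), 1.86 for TDH2 (SE 0.18), 1.38 for CDC19 (SE 0.18) and 1.30 for TDH3 (SE 0.24). PGK1 stood at 0.81 (SE 0.15), GPM1 at 0.59 (SE 0.17, adjusted p = 0.013) and ENO1 at 0.56 (SE 0.17, adjusted p = 0.015). The ENO1 call was lost without D87E met 888 (0.42), and the GPM1 call with the replicate block (adjusted p = 0.062) and with no filter on low values (adjusted p = 0.052). In footprints TDH2 (2.13, SE 0.30), CDC19 (1.44, SE 0.23), ENO2 (1.35, SE 0.27), TDH3 (1.26, SE 0.37), PGK1 (0.68, SE 0.20) and PYK2 (0.23, SE 0.08) differed (35.1% of all genes). Of these the TDH3 call was lost without E85Q met 625, E85Q starved 623, either D87E met library or D87E starved 888 (0.98 to 1.26) and with no filter on low values (adjusted p = 0.087), and the PGK1 call without the same 5 libraries (0.59 to 0.72). The PYK2 call was lost in 8 of the 12 fits that left out 1 library (0.20 to 0.26), all but those without a starved WT library, E85Q starved 623 or D87E starved 888, and with the replicate block (adjusted p = 0.075). ENO1 footprints (0.55, SE 0.20, adjusted p = 0.058) were called without E85Q starved 625 (0.67), with the replicate block (0.55), with the filter at a mean of 20 RPKM (0.55) and with medians (0.63) or upper quartiles (0.58) set equal.

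D87E gave no call for any of the 9 genes against WT, in either medium or in the difference of starvation changes, with limma and no other tool run. None of the 9 reached an unadjusted p below 0.05 in any of these comparisons. Few genes of any kind were called: with methionine 0% in mRNA, 0.0614% in footprints and 0.143% in translational efficiency, when starved 0%, 0% and 0.0205%, and in the difference of changes 0% in mRNA, 0% in footprints and 0% in translational efficiency. Over all genes, an unadjusted p below 0.05 was reached by 4.23%, 3.27% and 4.03% with methionine, 8.22%, 15.9% and 13% when starved and 4.73%, 11.7% and 10.7% in the difference, in the same order of measures. The absence of a call does not show that D87E and WT responded alike.

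Translational efficiency (TE) is the log2 footprint value minus the log2 mRNA value of the same sample. On starvation of WT, TE rose for PGK1 and ENO1 and fell for PYK2, with 6 not called, where 53.3% of all genes were called. PGK1 TE was 0.75 and 0.78 in WT with methionine and 1.20 and 1.09 when starved, a rise of 0.38 (SE 0.09, adjusted p = 0.0037). ENO1 TE went from 0.55 and 0.37 to 0.80 and 0.76, a rise of 0.32 (SE 0.11, adjusted p = 0.027), and PYK2 TE from 0.31 and 0.22 to -0.08 and -0.06, a change of -0.33 (SE 0.09, adjusted p = 0.01). None of these pairs of samples overlapped between media. In D87E, PGK1 (0.37, SE 0.09), ENO1 (0.34, SE 0.11) and ENO2 (0.38, SE 0.14, adjusted p = 0.037) rose and PYK2 fell (-0.31, SE 0.09), with 5 not called (60.9% of all genes). The median TE of all genes moved by -0.12 in WT and -0.23 in D87E. With medians set equal, PYK2 stood at -0.14 in WT and -0.04 in D87E and was not called, while GPM1 in D87E was called at 0.38 and ENO2 in WT at 0.51.

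Several of these TE calls were lost when 1 sample was left out, which leaves 1 sample in its group. A call could be lost there with little change of the value, as for ENO1 in D87E without starved 887 (0.33, against 0.34 in the full fit). In WT the ENO1 call was lost without met isolate 600 or either starved isolate (0.23 to 0.34), and the PYK2 call without met isolate 172 (-0.29). In D87E the ENO1 call was lost without met 888 or starved 887 (0.30 and 0.33), the ENO2 call without either met isolate or starved 888 (0.30 to 0.45) and with no filter on low values (adjusted p = 0.064), and the PYK2 call without met 887 or starved 888 (-0.29 and -0.25). The PGK1 rise kept its call in every such fit in both genotypes. ENO2 in WT (0.32, SE 0.14, adjusted p = 0.076) was called without met isolate 172 (0.46) and TDH2 in D87E (-0.27, SE 0.18, adjusted p = 0.21) without starved isolate 887 (-0.51). With the replicate block both were called at the values of the unblocked fit.

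In E85Q no TE change on starvation was called for the 9 genes (6.2% of all genes), with PGK1 at 0.25 (SE 0.09, adjusted p = 0.12) and ENO1 at 0.33 (SE 0.11, adjusted p = 0.1), the only ones at an unadjusted p below 0.05. E85Q TE did not differ by call from WT for any of the 9 with methionine, where 0.143% of all genes were called, or when starved (36.1%). Their number at an unadjusted p below 0.05 was 0 with methionine and 1 when starved, PYK2 at 0.23 (SE 0.09, adjusted p = 0.068), which was called without E85Q starved isolate 623 (0.36) and with pseudocount 10 (0.20). The TE difference of changes between E85Q and WT was called for none (21.9% of all genes), and 1 of the 9 had an unadjusted p below 0.05, ENO2 at -0.52 (SE 0.20, adjusted p = 0.085); ENO2 was called without E85Q met 625 (-0.69) or E85Q starved 623 (-0.67) and with the replicate block (-0.52). Against D87E 1 was called (37.4% of all genes), again ENO2, at -0.58 (SE 0.20, adjusted p = 0.044). That call was lost in 8 of the 12 fits that left out 1 sample (-0.66 to -0.41), all but those without a WT met sample, E85Q met 625 or E85Q starved 623, and with no filter on low values (adjusted p = 0.078). ENO2 TE was 1.17 and 0.83 in E85Q with methionine and 0.95 and 0.66 when starved, which overlap, against 0.79 and 0.66, then 1.03 and 1.19 in D87E.

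**Figure D5:**
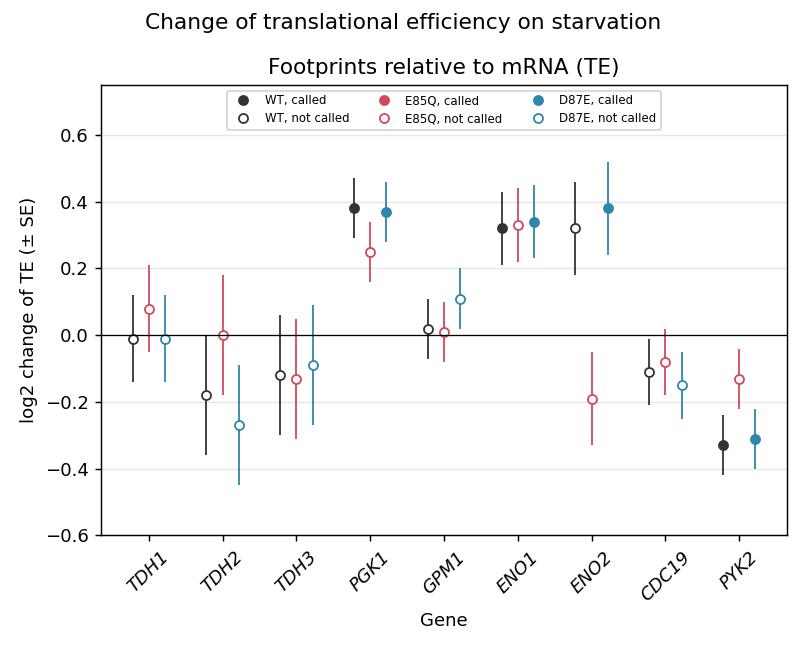
Change of TE on starvation (log2) for the 9 genes in WT, E85Q and D87E; bars are the SE of the limma fit, filled points were called at an adjusted p below 0.05. PGK1 and ENO1 lie between 0.25 and 0.38 in all 3 genotypes, and ENO2 lies at -0.19 in E85Q against 0.32 in WT and 0.38 in D87E.

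The rest of the pathway was described by gene lists. Their counts on starvation stand beside the mRNA of all genes, of which 60.2% rose and 26.7% fell in WT, and 46.5% rose and 30.3% fell in E85Q. Of 8 upper glycolysis genes, 2 rose and 6 fell in WT mRNA on starvation (median -0.78, against 0.40 for all genes), and in E85Q 2 rose, 3 fell and 3 were not called (median -0.16, against 0.14). The largest of these WT changes were those of GLK1, for glucokinase (1.85, SE 0.15), and FBA1, for aldolase (-1.74, SE 0.16). The difference of changes between E85Q and WT was called upward for 6 of the 8, FBA1 among them (1.54, SE 0.23, adjusted p = 0.00043), where 11.8% of all genes were called upward and 48.6% downward. Of 11 genes from pyruvate to ethanol and acetate, 9 were tested, of which 2 rose and 5 fell in WT mRNA. PDC6, a minor pyruvate decarboxylase gene known to be induced by sulfur limitation, rose by 10.32 (SE 0.17), and PDC1, its major form, changed by -2.76 (SE 0.15, adjusted p = 3.3e-08). In the difference between E85Q and WT PDC6 stood at -1.90 (SE 0.24) and PDC1 at 2.11 (SE 0.21) in mRNA. PDC6 footprints rose by 7.86 in WT, 6.54 in E85Q and 10.18 in D87E (SE 0.35 each). How far the size of the PDC6 changes rests on the pseudocount was not tested. In the footprint difference between E85Q and WT PDC6 was not called (-1.31, SE 0.50, adjusted p = 0.058), while PDC1 was, at 1.66 (SE 0.25).

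Of the known transcription factors of glycolysis, GCR1 mRNA rose by 0.69 (SE 0.06), 0.62 (SE 0.06) and 0.78 (SE 0.06) in WT, E85Q and D87E. TYE7 fell, at -0.69, -0.35 and -0.61 (SE 0.11 each), and RAP1 rose by 0.28, 0.23 and 0.25 (SE 0.06 each). GCR2 was not called in mRNA, at -0.01, -0.16 and 0.11 (SE 0.09 each). GCR1 footprints were not called, at 0.01, 0.01 and -0.18 (SE 0.10 each), and GCR1 TE fell in all 3 genotypes, at -0.68, -0.61 and -0.96 (SE 0.10 each). RAP1 footprints were not called either, at 0.14, 0.10 and 0.03 (SE 0.07 each), while TYE7 footprints fell, at -0.45, -0.37 and -0.56 (SE 0.15 each). GCR2 footprints fell in D87E (-0.25, SE 0.08, adjusted p = 0.018) and were not called in WT or E85Q. None of these 4 differed by call in starvation change between E85Q and WT in mRNA, with values from -0.16 (GCR2) to 0.34 (TYE7, SE 0.16, adjusted p = 0.087). The RAP1 rises in WT and D87E were smaller than the shift of the median of all genes.

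Of 5 gluconeogenesis genes 3 were tested: PYC1, for pyruvate carboxylase, changed by -2.26 (SE 0.08) and MDH2, for cytosolic malate dehydrogenase, by 1.53 (SE 0.12) in WT mRNA, and PYC2 also fell. Of 8 genes on branches to glycerol and serine, 4 rose and 4 fell in WT mRNA. SER33, for a phosphoglycerate dehydrogenase that opens serine synthesis, rose by 4.99 (SE 0.07), and GPP1, a glycerol phosphatase gene, changed by -2.33 (SE 0.11). SER3, also on the branch to serine, went the other way from SER33, at -1.85 in WT mRNA (SE 0.09) and -4.60 in WT footprints (SE 0.27). Of 5 paralogs of the mutase and enolase genes 2 were tested, and both rose in WT mRNA: GPM2 by 3.01 (SE 0.18) and GPM3 by 0.46 (SE 0.09). The GPM3 rise was close to the shift of the median of all genes, 0.40. In WT footprints GPM2 rose by 3.34 (SE 0.15) and GPM3 was not called (0.07, SE 0.12).

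The genes most like each member in mRNA pattern were ranked by Pearson's r of log2(RPKM + 1) over the 12 mRNA libraries, as a description; the libraries fall into 2 media, which any pair of starvation-responsive genes shares. TDH2 was most like PDC1 (r = 0.992) and PMT2 (0.991), TDH3 like SFG1 and ATP1 (0.994 each), ENO2 like HEM1 and FBA1 (0.995 each) and CDC19 like ACO1 and ADH1 (0.996 each). ENO1 was most like EHT1 and DAK1 (0.993 each), PYK2 like SDS22 (0.997) and YER079W (0.996) and TDH1 like YBR285W (0.979) and COS7 (0.976). GPM1 was closest to TAL1 (0.986) and GTT3 (0.977). PGK1 was closest to PDI1 (0.972) and ACH1 (0.959).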

How the data were processed

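RNA-seq and ribosome profiling values of 24 libraries were used, 12 per assay. Both deposited tables hold RPKM, computed by the authors; per the labels, reads were 50 bases long, and per the file names footprints of 18 to 34 nt were counted with positions masked. Per the submitters' processing notes, TopHat2 2.1.1, Bowtie 1.1.2 and the build sacCer3 were used; their roles are not given in the sources used here. From the RPKM steps, reads per library and counted bases per gene were recovered; read numbers lay within 0.0563 of a whole for all 9 genes. RPKM are not counts, so no count test was run.

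Values were taken as log2(RPKM + 1), and TE as the footprint minus the mRNA value of a sample. The 4888 genes whose mean reached 5 RPKM in both mRNA and footprints entered a fit of 6 group means and 10 two-sided comparisons with limma 3.58.1 under R 4.3.3 (functions lmFit and contrasts.fit, then eBayes with trend; tested on simulated data), Benjamini-Hochberg over all genes, called at an adjusted p below 0.05. P-values of this fit rest on the spread between the isolates of a group, pooled over the 6 groups, with the media not paired. The exact tests of the shares rest instead on changes within isolates. Python 3.11.15, numpy 2.4.6, pandas 2.3.3 and matplotlib 3.10.9 did the rest. Alternatives were other pseudocounts, filters and scalings, a replicate block and leaving out each library.

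Isolate numbers in the labels pair the media, since the same strain was sampled in both; deviations of same-numbered samples correlated at -0.183, 0.172 and -0.054 in mRNA and -0.024, 0.409 and 0.051 in footprints for WT, E85Q and D87E. The members, gene lists and tests were chosen with earlier results of these data known. Named were the 9 genes, the 2 genes most correlated with each, up to 2 called genes per list with the largest WT mRNA change, and every listed regulator. PYC2 and SER3 were named outside this rule, PYC2 to complete a count of 3 and SER3 beside SER33. Statements on calls gained or lost cover these alternatives alone.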

Additional observations from a re-analysis of the deposited data

Results flagged for a closer look

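The starvation change differed between genotypes, by the fitted test of the difference itself, in 29 cases among the 9 genes. Of all genes, E85Q minus WT was called for 60.4% in mRNA, 41.4% in footprints and 21.9% in translational efficiency. For E85Q minus D87E these shares were 57.7%, 35.1% and 37.4%. Many of the 29 calls were lost under some alternative, as given beside the results above. In mRNA, E85Q minus WT gave 1.97 for TDH2, 1.95 for ENO2, 1.51 for CDC19, 1.36 for TDH3, 0.82 for PGK1, 0.64 for GPM1 and 0.55 for ENO1. E85Q minus D87E gave 1.86 for TDH2, 1.92 for ENO2, 1.38 for CDC19, 1.30 for TDH3, 0.81 for PGK1, 0.59 for GPM1 and 0.56 for ENO1. In footprints, E85Q minus WT gave 2.15 for TDH2, 1.53 for CDC19, 1.43 for ENO2, 1.36 for TDH3, 0.69 for PGK1, 0.63 for GPM1, 0.56 for ENO1 and 0.26 for PYK2. E85Q minus D87E gave 2.13 for TDH2, 1.44 for CDC19, 1.35 for ENO2, 1.26 for TDH3, 0.68 for PGK1 and 0.23 for PYK2. In translational efficiency ENO2 stood at -0.58 in E85Q minus D87E. Both sets share the E85Q libraries and so are not independent, and TDH1 appears in none of them.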

How the results depend on the processing

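Of 270 values tested for single genes 97 were called, over comparisons in which from 0% to 86.9% of all genes were called. Of the 97, 68 kept call and direction under every alternative and 29 lost the call under at least 1. Among those 29, 2 reversed, both GPM1 mRNA on starvation, at -0.11 in WT and -0.05 in D87E with medians set equal. The number of the 9 genes called in mRNA between E85Q and WT with methionine was 2, and 1 with no filter on low values, 5 with medians set equal, 4 with upper quartiles set equal and 0 to 4 when 1 library was left out (0 without WT met 600 or E85Q met 623, 1 without WT met 172 or E85Q met 625, 4 without either starved D87E library). In footprints, the E85Q minus WT difference of changes had 8 called, 5 with no filter and 3 to 8 with 1 library left out; 3 were left without WT starved 600 or E85Q met 625, 4 without either WT met library and 5 without E85Q starved 623. E85Q minus D87E had 6, and 3 to 6 with 1 left out (3 without E85Q met 625, D87E met 887 or D87E met 888). In TE the D87E starvation count of 4 became 2 to 4 with 1 sample left out (2 without D87E met 887, D87E met 888 or D87E starved 888). The TE counts of E85Q against WT were 0 and became 1 when starved with pseudocount 10 and 0 to 1 with 1 sample left out, and 1 in the difference of changes with the replicate block and 0 to 1 with 1 left out. The TE count of 1 in E85Q minus D87E became 0 with no filter and 0 to 1 with 1 left out. The cause was not tested. Pairing by isolate, as a replicate block, lost or gained calls only as named beside the results, and could not be fitted between genotypes within a medium.

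Without the pairing (no replicate block) the TDH3 footprint share change of -1.86 percentage points had an adjusted p of 0.031 in the exact permutation test. With 1 isolate left out, the exact test of 5 isolates cannot go below p = 0.0625, so no share could pass, and the changes ranged in mRNA from 4.94 to 6.3 for TDH1, -5.28 to -4.37 for TDH2, 38.9 to 44.4 for ENO1 and 1.43 to 1.75 for PYK2. In footprints they ranged from 6.89 to 8.72, -6.7 to -5.36, 38.7 to 42.6 and 0.999 to 1.23. Shares kept direction with other pseudocounts and as log2 ratios. Each group held 2 isolates, and no value of the 9 genes rested on fewer than 728 reads.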
